A study of Mus musculus with 24 samples.

Results

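The comparison described here set liver kept in formalin for 3 weeks and then embedded in paraffin (FFPE 3 weeks) against the snap-frozen piece of the same livers. Its members were chosen by preservation label and animal number alone: the 3-week and the frozen library of each of 8 mice, which are 16 of the 24 libraries of the study. The study asked how gene expression in furan-dosed liver is measured by sequencing of ribosome-depleted total RNA when the tissue is frozen or fixed. Furan is a heat-formed food contaminant that is toxic to the rodent liver. All animals were female B6C3F1 mice, a first-generation hybrid of C57BL/6 and C3H parents, 5 to 6 weeks old by the labels. Control animals 2, 3, 4 and 6 were gavaged with corn oil, and furan animals 41, 42, 43 and 44 with furan in corn oil at a daily 8 mg per kg of body weight. Dosing lasted 21 days in both groups and livers were taken 4 h after the final dose. Each liver was divided into a frozen piece, a piece fixed for 18 h and a piece fixed for 3 weeks. RNA came from about 100 mg of frozen tissue with the RNeasy Midi kit, and from 2 sections of 10 µm of each 3-week block with the RNeasy FFPE kit. RNA integrity numbers were above 8.9 for frozen samples and 1.3 to 2.4 for fixed samples. Preservation, kit, amount of tissue and piece of liver changed together, so that their parts in any difference below cannot be told apart.

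Formalin links proteins and nucleic acids by methylene bridges and leaves bases modified, and RNA recovered from paraffin blocks is broken into short fragments. Library preparation from total RNA with ribosomal RNA removed does not depend on a poly(A) tail, so that it can also report RNAs without one. Among these are small nucleolar RNAs (snoRNAs), which are cut out of introns of host genes and guide the modification of ribosomal RNA: H/ACA box snoRNAs guide pseudouridylation and C/D box snoRNAs guide 2′-O-methylation. Hepatocytes hold large amounts of a few messenger RNAs for plasma proteins, so that a change in these few moves the share of every other gene.

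The small RNAs below are shown because H/ACA box snoRNAs were the group with the greatest rise among the snoRNA, structured RNA and messenger RNA lists, and the C/D box RNAs are their counterparts. Sequences and coordinates are from GENCODE M21 on GRCm38, 5′ to 3′, with T for U. Capitals mark ACA at the position 3 bases from the end and, where a single match lies in the middle of the RNA, the H box ANANNA. In the C/D box RNAs they mark the C box TGATGA and the D box CTGA.
Snora69 (chrX:37082912-37083042, minus strand, in Rpl39): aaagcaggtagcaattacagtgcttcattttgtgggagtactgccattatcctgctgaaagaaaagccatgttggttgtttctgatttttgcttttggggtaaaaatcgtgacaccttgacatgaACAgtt
Snora3 (chr7:109520120-109520251, plus strand, in Rpl27a): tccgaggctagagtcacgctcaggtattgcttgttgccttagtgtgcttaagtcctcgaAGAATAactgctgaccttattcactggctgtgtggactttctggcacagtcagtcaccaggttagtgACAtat
Snora70 (chrX:74272484-74272620, plus strand, in Rpl10): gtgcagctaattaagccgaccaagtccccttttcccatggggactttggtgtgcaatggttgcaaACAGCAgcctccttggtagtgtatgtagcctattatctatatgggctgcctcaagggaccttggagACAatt
Snora21 (chr11:97781639-97781775, minus strand, in Rpl23): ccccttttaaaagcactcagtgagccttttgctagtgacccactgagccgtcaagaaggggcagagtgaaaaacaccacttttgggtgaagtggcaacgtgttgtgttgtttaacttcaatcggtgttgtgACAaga
Snord15b (chr7:99479563-99479707, minus strand, in Rps3): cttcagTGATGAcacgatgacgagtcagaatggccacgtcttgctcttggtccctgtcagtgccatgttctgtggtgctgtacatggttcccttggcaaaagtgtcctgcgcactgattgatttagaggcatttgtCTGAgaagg
Snord104 (chr11:106500993-106501062, plus strand): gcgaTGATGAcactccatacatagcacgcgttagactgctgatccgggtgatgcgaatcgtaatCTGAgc
The ACA, read on the RNA's own strand, lay 3 bases from the end in 23 of the 29 tested H/ACA snoRNAs with a single annotated sequence (79.3%). Among all 4796 annotated transcripts of 100 to 200 bases 313 had it there (6.53%), and among the 3777 of them that are not snoRNAs 62 (1.64%). The 4 H/ACA RNAs printed are 131 to 137 bases long and lie within genes for ribosomal proteins. Snora81 (178 bases, in Eif4a2) and Snora28 (127 bases, in Eif5), named below, lack the ACA at that position and are not printed. Snord22, also named below and not printed, has no TGATGA near its start.

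The libraries differed in depth by preservation. Frozen libraries held 38.0 to 49.3 megacounts (M), 18 h libraries 22.9 to 28.1 M and 3-week libraries 5.56 to 11 M. Levels below are CPM, counts per megacount of the library with TMM factors, a normalization that centres most genes, and are given as the median with the lowest and highest of 8 animals. Frozen control animal 3 stood apart: 0.262% of its counts were ribosomal RNA signals against 0.0806 to 0.160% in the other frozen libraries, and its count-weighted mean GC content was 49.5% against 48.1 to 48.5%. The 3-week libraries of control animals 3 and 6 and furan animal 42 held skeletal muscle transcripts. For 21 skeletal muscle genes, listed after their values were seen, the summed level without scaling was 555 to 3209 CPM in these 3 libraries, 6.58 to 29.7 CPM in the other 5 and 2.44 to 8.81 CPM in all frozen libraries. Acta1, skeletal muscle actin, was at 15.5 to 122 CPM in the 3 libraries and at 0.145 CPM or less in the other 5 and in the frozen pieces, and the titin gene Ttn reached 2489 CPM. The 18 h library of furan animal 44 had 275 CPM in the same sum, against 8.30 to 22.3 CPM in the other 18 h libraries. Only 4 of the 21 genes passed the filter on low counts and 1 of them was called. Of 32 markers of pancreas, fat, skin, mesothelium and muscle, 6 were tested, of which 0 rose, 1 fell and 5 were not called, beside the 27.2% of all genes that fell. The fall was Cela1, a pancreatic-type elastase (-1.0 ± 0.15, adjusted p = 2.73e-06). Without animals 3, 6 and 42, 5978 genes were called, and without animal 3 alone 6774, against 6739 with all 8 animals. Alb, the message that defines hepatocytes, took 5.26 to 12.7% of the counts in each of the 16 libraries.

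After 3 weeks in formalin, small structured RNAs and long nuclear RNAs took a larger share of the counts, and messenger RNAs of secreted, mitochondrial and proteasomal proteins a smaller one. Of 14253 genes tested with edgeR's quasi-likelihood test with the animal as block, 6739 were called at a Benjamini-Hochberg adjusted p below 0.05, which is 47.3%. Of these 2861 were higher after 3 weeks (20.1%) and 3878 lower (27.2%). The counts of rises and falls of every gene group below are to be read beside these 2 shares. At least 2-fold differences were found for 1100 higher genes (7.72%) and 1733 lower genes (12.2%). The median log2 fold change over all tested genes was -0.15. The balance depended on the scaling: with total counts alone 5021 genes were higher and 2006 lower, because that scale lies 0.42 log2 units above the TMM scale. Of the 6739 calls 4867 kept their direction under it and 37 were called the other way, so that changes are relative to the TMM scale throughout.

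**Figure D1:**
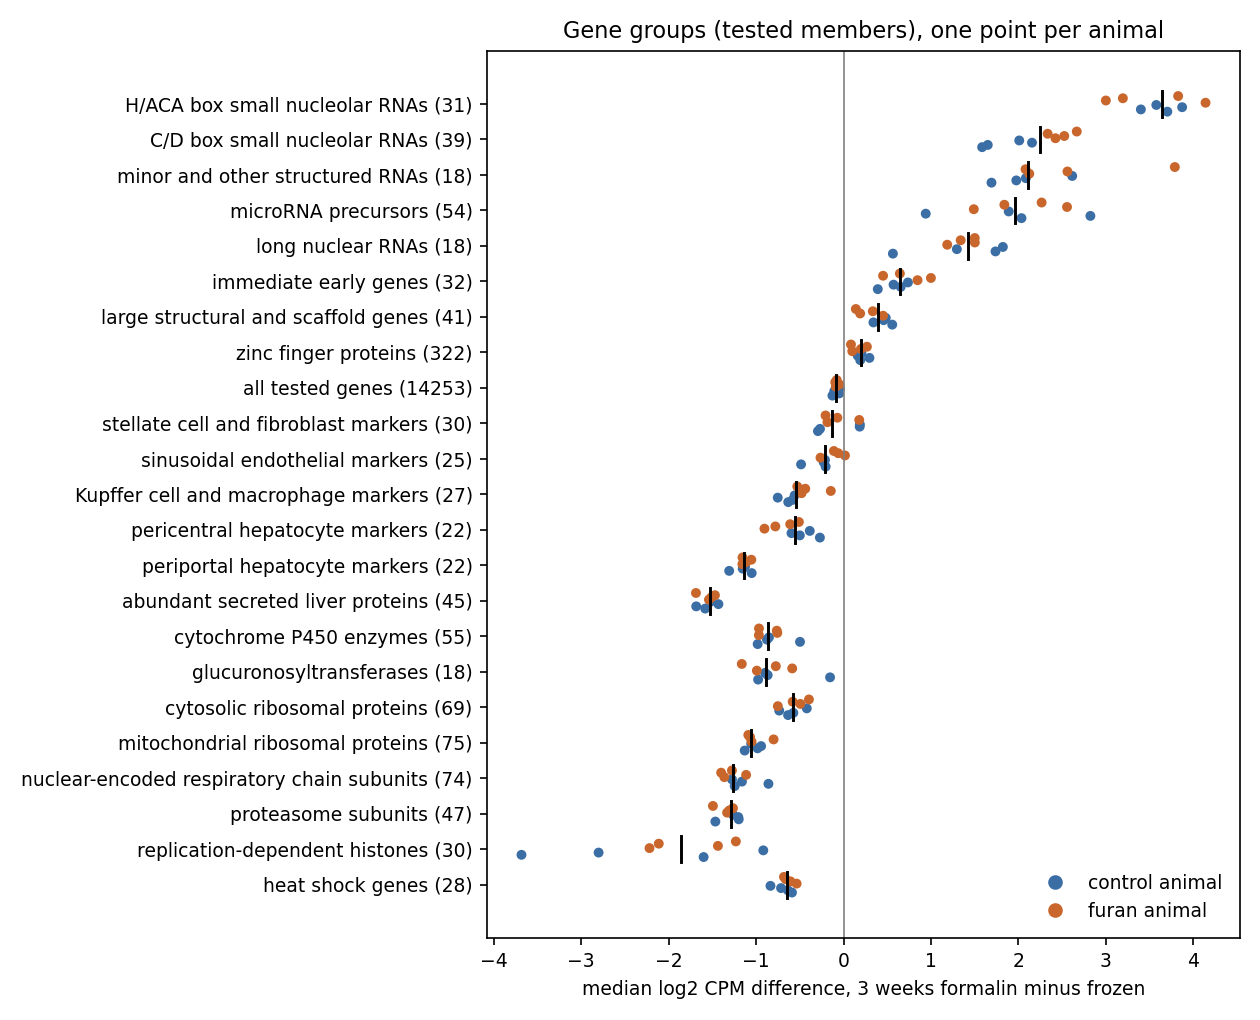
Median log2 CPM difference (x axis, 3 weeks formalin minus frozen) of each gene group (y axis, with the number of tested members), 1 point per animal and a black line at the median of the 8 animals. The 8 animals of the H/ACA, C/D and structured RNA groups lie right of 0, and those of the secreted protein, respiratory chain and proteasome groups left of it.

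H/ACA box snoRNAs rose as a group. Of 31 tested, 28 rose and 0 fell, beside 20.1% and 27.2% of all genes, and their median log2 fold change was 3.32. The other 3 tested did not pass the test, and 5 of the 36 symbols in the table had no count in any of the 16 libraries. Without the 3 animals with muscle transcripts 27 of 31 rose, with a median of 3.54. Their summed share of all counts went from 0.00893% (0.00730 to 0.0107%) in frozen tissue to 0.142% (0.110 to 0.170%) after 3 weeks, higher in 8 of 8 animals (exact sign-flip permutation test, two-sided, p = 0.0078125, the smallest that 8 pairs allow; adjusted over 16 measures 0.00833).

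Snora69, the RNA printed first above, was at 0.0764 (0.0242 to 0.284) CPM in frozen tissue and at 22.6 (21.3 to 35.1) CPM after 3 weeks. The ranges lie far apart, and the log2 fold change was 8.04 ± 0.35 (± SE, here and below; adjusted p = 4.86e-16). Snora3 went from 0.907 (0.54 to 1.26) to 119.6 (90.3 to 139.8) CPM (7.01 ± 0.15, adjusted p = 1.21e-21). Every 3-week library was above every frozen library for both. The frozen counts of Snora69 were close to 0, so that the size of its fold is set by few counts. Snora70, at 13.8 (12.1 to 32.4) CPM in frozen tissue, reached 165 (111 to 202) CPM (3.32 ± 0.12, adjusted p = 2.31e-17). Snora21 went from 0.906 (0.726 to 1.51) to 43.6 (31.7 to 56.3) CPM (5.45 ± 0.20). Snora28 and Snora81 rose by 5.97 and 6.90 on the log2 scale, the latter with no count in the frozen library of animal 3.

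C/D box snoRNAs showed the same direction with fewer calls. Of 39 tested, 17 rose and 0 fell, with a median log2 fold change of 2.07, and 6 of the 69 symbols in the table had no count. Snord15b, whose host Rps3 encodes a protein of the small ribosomal subunit, went from 52.7 (44.8 to 70.2) to 174 (133 to 185) CPM (1.61 ± 0.09, adjusted p = 2.00e-13). Snord104 rose from 3.54 (2.20 to 5.21) to 36.8 (24.6 to 40.6) CPM (3.29 ± 0.18). Both were free of overlap between the preservations. Snord22, one of the RNAs in the introns of Snhg1, rose by 3.83 and Snord8 by 4.11.

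Other short structured RNAs rose too. Of 18 tested members of the group of minor spliceosomal, vault, Cajal body and similar RNAs, 12 rose and 0 fell, with a median of 2.14. Rnu11, the U11 RNA of the minor spliceosome, which removes a rare class of introns, went from 0.841 (0.0616 to 1.18) to 87.3 (81.1 to 114) CPM (6.91 ± 0.26, adjusted p = 1.94e-13). Rnu12, its U12 partner, rose from 0.0282 (0 to 0.0726) to 7.69 (4.60 to 16.2) CPM (7.53 ± 0.53). In some frozen libraries the counts of both were close to 0, so that the size of these folds is set by few counts. Vaultrc5, the RNA of the vault particle, was measured at 2.52 (1.99 to 5.76) CPM in frozen tissue and at 291 (241 to 375) CPM after 3 weeks (6.8 ± 0.18, adjusted p = 1.67e-14). Scarna6, a Cajal body RNA that guides the modification of spliceosomal RNA, rose from 4.97 (4.03 to 11.7) to 51.0 (40 to 66.7) CPM (3.20 ± 0.18).

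**Figure D2:**
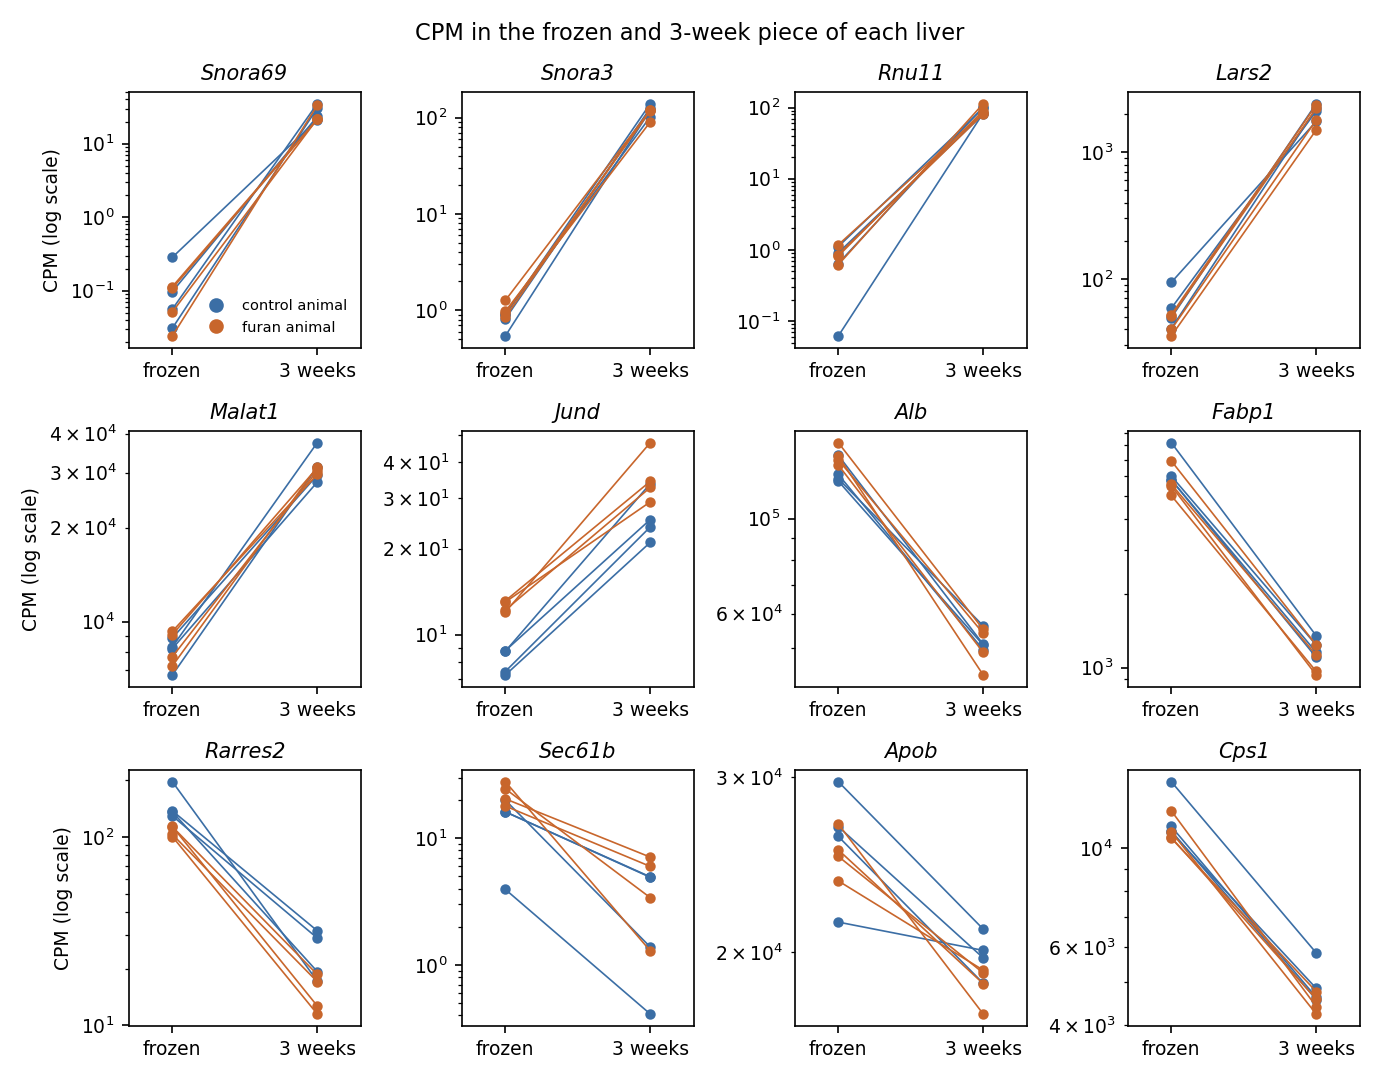
CPM on a log scale (y axis) in the frozen and the 3-week piece of each liver (x axis) for 12 genes named in the text, with 1 line per animal, blue for control and orange for furan. Lines of Snora69, Snora3, Rnu11, Lars2, Malat1 and Jund go up in all 8 animals and those of Alb, Fabp1, Rarres2, Sec61b, Apob and Cps1 go down. For Snora69, Snora3, Rnu11, Lars2, Fabp1, Rarres2 and Sec61b 1 direction in 8 animals was a condition of being named among the largest changes.

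The snoRNAs and the genes that hold them had different fold changes. For 62 tested snoRNAs inside 48 tested host genes, the median log2 fold change was 2.56 for the snoRNAs and -0.32 for the hosts, of which 8 rose and 18 fell. The fitted fold change of the snoRNA was above that of its host in 56 of 62 pairs, and in 33 pairs this held in each of the 8 animals. Some snoRNAs share a host, so that the pairs are not independent. For 30 microRNA precursors in 30 hosts the medians were 1.99 and 0.01, with 25 above their host, 4 of them in all 8 animals. A separate list of snoRNA host genes gave 4 rises and 3 falls among 17, with a median of 0.00, near the 20.1% and 27.2% of all genes. Gas5 rose (0.78 ± 0.10, adjusted p = 5.30e-07) and Eef2, a translation elongation factor, fell (-0.91 ± 0.11). Where reads of a snoRNA and of the intron or exon around it overlap, the way they were assigned is not given in the sources used here.

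**Figure D3:**
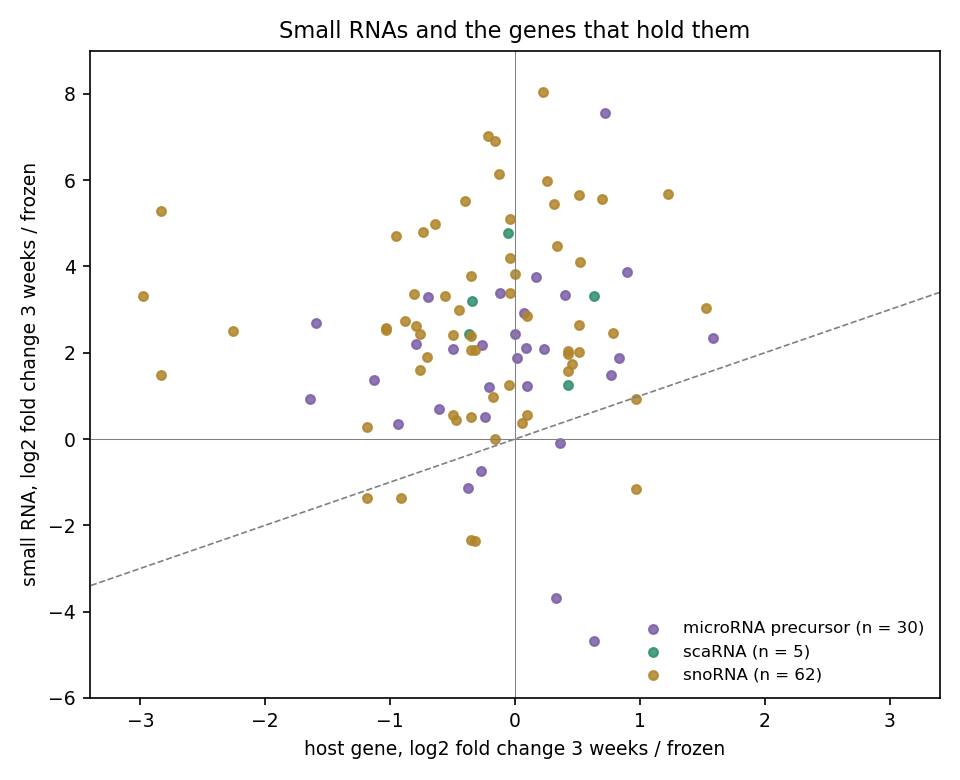
Log2 fold change (3 weeks over frozen) of each tested small RNA (y axis) against that of the gene that holds it (x axis), coloured by kind of small RNA, with equality as a dashed line. Of the 62 snoRNAs 56 lie above the line, while hosts spread around 0.

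MicroRNA precursors were measured less firmly. Of 54 tested among 1083 symbols, 13 rose, 2 fell and 39 were not called, while 20.1% of all genes rose and 27.2% fell. The rises include Mir6236, which is also counted below among the ribosomal RNA signals. The median log2 fold change of the list was 2.08, and 1.43 without animal 3. Sequences of mature arms were found in RefSeq (GRCm38.p6) for 13 of the 15 called, and their 18 arms had 18 different seeds. Mir6516, with the firmest rise, is printed with bases 2 to 8, the seed that pairs with targets, in capitals.
Mir6516-5p (chr11:117077370-117077391, plus strand): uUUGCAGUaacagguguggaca
Mir6516-3p (chr11:117077412-117077433, plus strand): uCAUGUAUgauacugcaaacag
Mir6516 was at 4.75 (4.01 to 7.51) CPM in frozen tissue and at 30.7 (26.2 to 44.5) CPM after 3 weeks (2.69 ± 0.17, adjusted p = 1.18e-12). Mir706 had 0 counts in the frozen libraries and 97 in the 3-week libraries. By total counts that is 157-fold higher when 3 counts in all stand for the empty group, a floor that covers counting error only. The 2 falls were Mir122a (-4.14, adjusted p = 0.0192) and Mir26b (-4.68, adjusted p = 0.0147), both higher in 1 of 8 animals and named after their values were seen. Whether these reads came from a precursor or from the RNA around it was not tested.

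Signals of ribosomal RNA left after depletion rose. Rn45s, the precursor of ribosomal RNA, went from 1169.8 (849 to 2934) to 32119 (23804 to 45195) CPM (4.59 ± 0.25, adjusted p = 2.06e-06). Lars2, a mitochondrial tRNA synthetase gene grouped with these signals because ribosomal RNA reads can be assigned to it, went from 49.8 (35.3 to 93.7) to 2175 (1504 to 2426) CPM (5.34 ± 0.17, adjusted p = 8.24e-11). Together with Mir6236 all 3 tested signals rose, and their share of counts went from 0.109% (0.0806 to 0.262%) to 4.05% (3.00 to 5.49%). The range of each preservation lies apart from the other even with frozen animal 3 included. With these signals left out of the fit 6735 genes were called.

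Long RNAs that stay in the nucleus were higher as well. Of 18 tested, 10 rose and 0 fell, beside 20.1% and 27.2% of all genes, with a median of 1.35. Malat1, a nuclear speckle RNA, went from 8238 (6736 to 9298) to 30778 (27992 to 37450.2) CPM (1.93 ± 0.06, adjusted p = 5.37e-18). Neat1, the scaffold of paraspeckles, rose by 2.25 ± 0.06 and Kcnq1ot1, an imprinted antisense RNA, by 2.60 ± 0.10. Jpx, an RNA of the X-inactivation centre, went from 5.44 (3.17 to 8.44) to 54.2 (40.3 to 71.1) CPM (3.36 ± 0.15). Malat1 and Neat1 together took 0.741% (0.599 to 0.885%) of frozen and 3.80% (3.49 to 4.45%) of 3-week counts. By annotated class, 79 of 211 antisense RNAs rose and 3 fell (median 1.30), and 45 of 145 long intergenic RNAs rose and 7 fell (median 0.80). Whether the counting used strand is not given in the sources used here, so that reads of an antisense RNA and of the gene opposite cannot be told apart.

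The other largest rises were mostly sparse in frozen tissue. The 12 named by rule, outside small RNAs, were Lars2, 5730408K05Rik, Gm4432, Gpr22, Gm20199, Jpx, Tro, Sorbs2os, Prss48, Atn1, Gm4841 and Gm15713. Gpr22, an orphan receptor gene, went from 1.38 (0.333 to 2.03) to 16.2 (12.4 to 25.6) CPM (3.72 ± 0.28). Atn1, which encodes the corepressor atrophin 1, went from 2.63 (1.66 to 5.24) to 24.7 (17.9 to 30.5) CPM (3.17 ± 0.24). Gm4841 was at 5.85 (3.97 to 6.83) CPM in frozen tissue and at 50.2 (46.1 to 53.6) CPM after 3 weeks (3.16 ± 0.14, adjusted p = 6.32e-16).

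Transcript length went with the difference. Among protein-coding genes, the median log2 fold change was -1.12 for the 559 with a longest transcript from 500 to under 1000 bases, of which 11 rose and 313 fell. It was -0.77 for 2655 genes from 1000 to under 2000 bases, -0.37 for 2974 genes from 2000 to under 3000 bases and -0.05 for 4230 genes from 3000 to under 5000 bases. It was 0.30 for the 2862 genes of 5000 bases and over, of which 1210 rose and 302 fell. The 36 protein-coding genes from 200 to under 500 bases kept this order, with a median of -1.17, 2 rises and 20 falls. Below 200 bases there were 135 genes, none of them protein-coding, with a median of 2.38, 64 rises and 2 falls. Genes of other biotypes had within-animal medians above 0 in every length class, for example 0.996 to 1.57 from 3000 to under 5000 bases. Length and biotype therefore cannot be told apart below 200 bases. Spearman's rho across 13316 protein-coding genes between length and the difference, computed in each animal, was 0.327 on average (0.282 to 0.352), above 0 in 8 of 8 animals (exact sign-flip permutation test over animals, p = 0.0078125, adjusted over 8 relations 0.0125). Genes are not replicates, and the test is over the animals. Over all 14123 tested genes with a length the mean rho was 0.265, with the shortest in place of the longest transcript of a symbol 0.0564, and with genes of a mean log2 CPM of at least 3 alone 0.436.

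**Figure D4:**
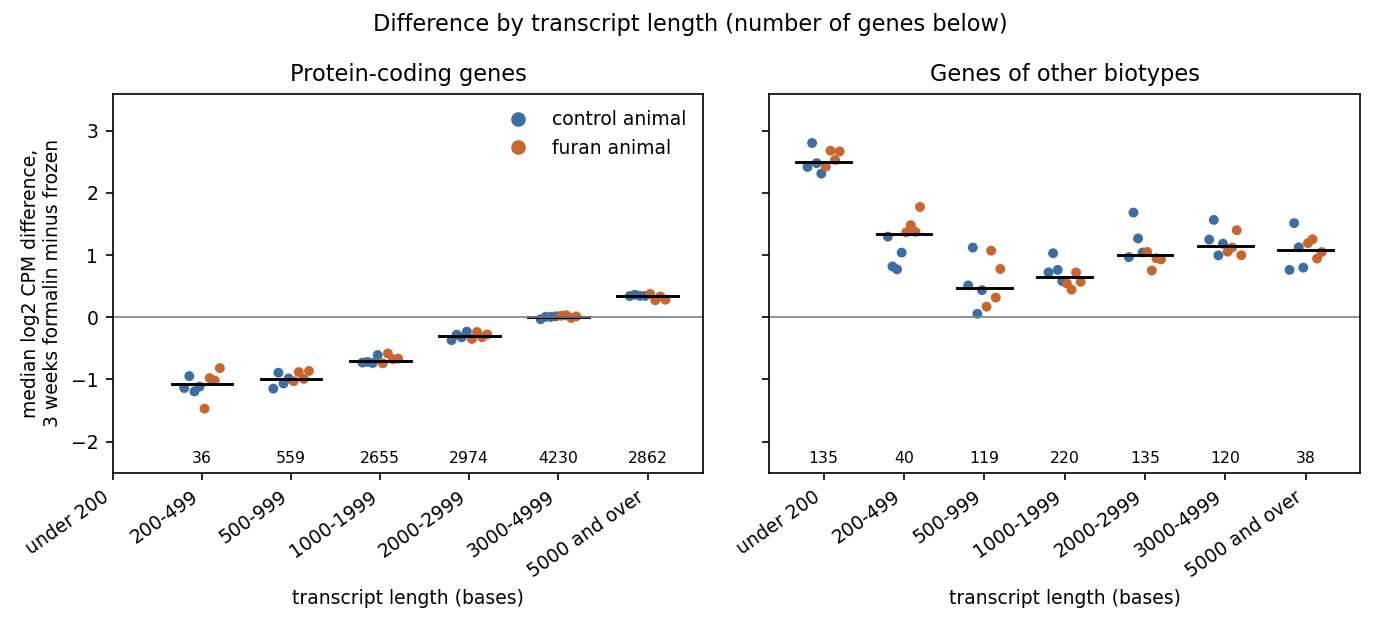
Median log2 CPM difference (y axis, 3 weeks formalin minus frozen) by longest annotated transcript in bases (x axis) for protein-coding genes (left) and other biotypes (right), 1 point per animal, black lines at the median of the animals and the number of genes below. From 500 bases the points of protein-coding genes step up with length. The 135 genes under 200 bases, all of other biotypes, lie highest.

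GC content had a weaker relation that rested in part on 1 animal. The mean rho over all tested genes was -0.122 (-0.374 to -0.0341), below 0 in 8 of 8 animals (exact permutation p = 0.0078125), and -0.0861 without animal 3 (exact permutation p = 0.015625, the smallest for 7 animals). With the shortest transcript of a symbol it was -0.0625 (exact permutation p = 0.03125). Within length classes the order by length held at each GC level: genes under 2000 bases had medians of -0.68, -0.82 and -0.91 at a GC content under 45%, from 45% and from 55%. Genes of 4000 bases and over had 0.28, 0.18 and 0.17 at the same levels. For the number of exons the mean rho was -0.0276 over all tested genes (adjusted exact permutation p = 0.0521) and 0.0213 (-0.0486 to 0.0632) over protein-coding genes (adjusted exact permutation p = 0.161). For the share of the gene in introns it was -0.000480 over all tested genes (adjusted exact permutation p = 0.922) and 0.0301 (0.00809 to 0.0630) over protein-coding genes, above 0 in 8 of 8 animals (adjusted exact permutation p = 0.0125).

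Messenger RNAs of plasma proteins fell. Of 45 tested genes for abundant secreted liver proteins, 44 fell and 1 rose, with a median of -1.56. The exception was Rbp4, the retinol carrier, at 0.49. Alb, albumin, went from 135325 (122409 to 150496) to 50793 (43154 to 56209) CPM (-1.40 ± 0.05, adjusted p = 6.39e-18). Its share of all counts was 11.7% (10.5 to 12.7%) in frozen and 5.78% (5.26 to 6.47%) in 3-week libraries. For all 45 genes the share was 28.9% and 15.1%, lower in 8 of 8 animals (exact permutation p = 0.0078125, adjusted 0.00833). Trf, transferrin, fell by 1.67 ± 0.05 on the log2 scale, Apoe, an apolipoprotein of remnant particles, by 1.96 ± 0.08, and Apoa2, of high-density lipoprotein, by 2.05 ± 0.06. Apob, the very long transcript of the structural protein of low-density lipoprotein, went from 25749 (21434 to 29694) to 19108 (17316 to 21085) CPM. Its log2 fold change of -0.41 ± 0.05 was the least of the 8 most abundant genes, and with total counts as the scale it was 0.00917 and not called.

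The 12 largest falls outside small RNAs were Rarres2, Nprl2, H2-Q2, Sec61b, Fabp1, Nat9, Mrpl24, Hist1h1c, Yipf2, Apom, Mgst3 and Blvra. Rarres2, the precursor of the adipokine chemerin, went from 121 (100.3 to 196) to 17.9 (11.5 to 31.7) CPM (-2.76 ± 0.14, adjusted p = 3.75e-14). Fabp1, the fatty acid binding protein of liver, went from 5797 (5004 to 8202) to 1141 (934 to 1348) CPM (-2.42 ± 0.05, adjusted p = 2.58e-21). Both were lower in every 3-week library than in any frozen library. Apom, an apolipoprotein that carries sphingosine 1-phosphate, fell from 322 (294 to 505) to 68.6 (56.9 to 79.7) CPM (-2.31 ± 0.09). Mgst3, a microsomal glutathione transferase, fell by 2.3 ± 0.30 and Blvra, which reduces biliverdin to bilirubin, by 2.28 ± 0.35. For Sec61b, Hist1h1c and Yipf2 the 2 preservations overlapped although each animal was lower after 3 weeks, which the rule for naming required.

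Hepatocyte genes of both zones of the lobule were lower. Of 22 periportal markers 21 fell and 0 rose (median -1.12), and of 22 pericentral markers 12 fell and 4 rose (median -0.67). Of all genes 27.2% fell and 20.1% rose, so that the share of pericentral rises was close to that of all genes. Cps1, which starts the urea cycle, went from 10926 (10545 to 14135) to 4602 (4239 to 5818) CPM (-1.27 ± 0.05), and Fbp1, of gluconeogenesis, fell by 2.01 ± 0.07. Cyp2e1, the pericentral enzyme that activates furan, went from 8563 (6458 to 12731) to 3755 (2510.3 to 5327) CPM (-1.18 ± 0.05, adjusted p = 1.06e-15). The 4 pericentral rises were Slc1a2 (0.73), Tbx3 (0.78), Znrf3 (0.84) and Ahr (0.29), named after their values were seen. In bulk tissue, fewer cells of a type, less RNA per cell and the differences in preservation, kit, amount of tissue and piece of liver cannot be told apart.

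Families of detoxifying enzymes were lower. Of 55 cytochrome P450 genes 45 fell and 2 rose, with a median of -0.86, and of 18 glucuronosyltransferase genes, whose products conjugate bilirubin and drugs, 13 fell and 2 rose, with a median of -0.85. Cyp2a12 fell by 1.88 ± 0.07 and Ugt2b36 by 1.82 ± 0.07. The 2 P450 rises were Cyp4a31 (0.79) and Cyp4a32 (1.03), which are close copies, so that the assignment of their reads is uncertain. Of 37 targets of the antioxidant factor NRF2, 25 fell and 2 rose (median -0.59), among the falls Gsta4 (-2.08 ± 0.15) and Ephx1 (-1.50 ± 0.07). Major urinary proteins, a family of near-identical genes in which reads cannot be placed with certainty, gave 7 falls and 3 rises of 17 (median -0.59). Of all genes 27.2% fell and 20.1% rose, so that the share of rises in this family was close to that of all genes.

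Genes of mitochondrial energy supply and protein turnover mostly fell. Of 74 nuclear-encoded respiratory chain subunits 67 fell and 0 rose, with a median of -1.28. Atp5b, the catalytic beta subunit of ATP synthase, went from 1467 (1365 to 1642) to 485 (418 to 532) CPM (-1.63 ± 0.06, adjusted p = 2.22e-17), and Uqcrc2, a core subunit of complex III, fell by 1.98 ± 0.07. The share of counts of this group was 0.853% (0.783 to 0.940%) in frozen and 0.475% (0.444 to 0.497%) in 3-week libraries. Of 75 mitochondrial ribosomal proteins 62 fell and 0 rose (median -1.02). Of 47 proteasome subunits 42 fell and 1 rose, with a median of -1.40, and Psmc3, an ATPase of the proteasome cap, went from 109 (105 to 174) to 28.9 (21.1 to 40) CPM (-2.01 ± 0.12). Cytosolic ribosomal proteins gave 27 falls and 2 rises of 69 (median -0.78), with Rpl8 at -1.29 ± 0.11 and Rps3, the host of Snord15b, at -0.76 ± 0.08. The median transcript of the respiratory chain list had 913 bases, that of the cytosolic ribosomal proteins 943, that of the proteasome list 1541 and that of the secreted protein list 1741. The part of length in these list values was not tested. Without animals 3, 6 and 42, 67 of 75 tested respiratory chain genes, 43 of 47 proteasome genes and 44 of 45 secreted protein genes fell.

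Histone and chaperone genes were lower. Of 30 replication-dependent histone genes, whose messages end in a stem-loop in place of a poly(A) tail, 14 fell and 1 rose, with a median of -2.06 and 15 not called. Hist1h1e, a linker histone, went from 37.9 (26.9 to 68.8) to 9.12 (5.16 to 17.5) CPM (-2.06 ± 0.19, adjusted p = 7.27e-10). Of 28 heat shock genes 17 fell and 2 rose (median -0.70), among the falls Hspa5, the chaperone of the endoplasmic reticulum, from 896 (636 to 1128) to 328 (239 to 397) CPM (-1.40 ± 0.06).

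Immediate early genes, which cells switch on within minutes of a stimulus, gave rises and no falls. Of 32 tested, 15 rose, beside 20.1% of all genes, with a median of 0.37. Jund, an AP-1 transcription factor, went from 10.4 (7.22 to 13.1) to 30.9 (21.0 to 46.9) CPM (1.58 ± 0.15, adjusted p = 2.75e-09), and Klf2, a zinc finger factor, from 3.18 (2.15 to 4.65) to 10.3 (7.14 to 20.6) CPM (1.86 ± 0.28). Every 3-week library was above every frozen library for these. Egr1 varied widely among animals, at 7.11 (0.894 to 14.5) CPM in frozen tissue and 23.6 (4.84 to 69.3) CPM after 3 weeks, and the ranges overlapped although each animal was higher after 3 weeks (1.82 ± 0.18). Fos, Junb, Atf3, Dusp1 and Myc were among the 17 not called.

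Very long genes rose more often than they fell. Of 41 genes for giant structural and scaffold proteins 23 rose and 1 fell, with a median of 0.35. Kmt2a, a histone methyltransferase, went from 41.3 (37.8 to 65.3) to 125 (98.1 to 177) CPM (1.49 ± 0.10, adjusted p = 2.37e-12) and Kmt2d rose by 1.67 ± 0.14. The list holds muscle genes such as Ttn and Neb. Without the 3 animals with muscle transcripts 24 of its 41 members rose and 1 fell. Of 322 zinc finger genes 72 rose and 14 fell, a share of rises close to that of all genes, with a median of 0.05. Zfp871 went from 247 (214 to 287) to 738 (673 to 797) CPM (1.59 ± 0.07).

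Markers of the other liver cell types gave both rises and falls, to be read beside the 20.1% of all genes that rose and the 27.2% that fell. Kupffer cell and macrophage markers gave 13 falls and 1 rise of 27 (median -0.47), with the Kupffer cell lectin Clec4f at 126 (114 to 200.5) CPM in frozen and 48.3 (43.4 to 91.4) CPM in 3-week tissue (-1.38 ± 0.09, adjusted p = 3.28e-12). Sinusoidal endothelial markers gave 7 falls and 3 rises of 25 (median -0.26), stellate cell and fibroblast markers 9 falls and 7 rises of 30 (median -0.05), and bile duct markers 3 and 3 of 17 (median -0.37). The shares called among endothelial, stellate and bile duct markers were near or below those of all genes. The bile duct list had no clear direction: its fitted median was below 0, while the median of its within-animal differences was above 0 in 6 of 8 animals. The within-animal differences carry a pseudocount, which raises those of genes with few counts in the smaller 3-week libraries. The medians of these 3 lists changed sign when total counts set the scale. Within the stellate list Dcn, a small matrix proteoglycan, fell (-1.02 ± 0.10) while Col1a1, a chain of type I collagen, rose (2.11 ± 0.27). Of 29 p53 targets 6 rose and 7 fell, with Zmat3 at 2.09 ± 0.15, and of 26 hypoxia targets 6 rose and 5 fell, with Vegfa at 0.73 ± 0.08 and Ldha at -1.60 ± 0.09, shares close to those of all genes. Of 22 lymphocyte markers 1 rose and 1 fell (median -1.02, and above 0 without the replicate block, at 0.09, and after thinning to equal depth, at 0.02), while their summed level went from 51.5 CPM (45.3 to 81.9) in frozen to 63.8 CPM (47.4 to 80.1) in 3-week libraries, with overlapping ranges. Cd27, a costimulatory receptor of lymphocytes, rose from 0.939 (0.23 to 1.62) to 4.50 (1.46 to 9.94) CPM (2.39 ± 0.51, adjusted p = 0.000309). The T-cell receptor subunit Cd3g had 194 counts over the frozen libraries and 0 over the 3-week libraries. By total counts that is 13.3-fold lower when 3 counts in all stand for the empty group. It is not a lower bound, since low counts were rare in the 3-week libraries, as described below. The 4 tested neutrophil markers (median -0.88) did not pass the test, with Lcn2 nearest to it (-0.60 ± 0.29, adjusted p = 0.0918), and 2 of 6 erythroid markers fell.

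The 3-week piece was also set against the 18 h piece of the same livers, 8 against 8 libraries. Of 14414 genes tested, 5069 were called (35.2%), 2068 higher (14.3%) and 3001 lower (20.8%), and differences of at least 2-fold numbered 230 (1.6%) and 512 (3.55%). For 18 h against frozen, 8630 of 14843 were called (58.1%), 4261 higher (28.7%) and 4369 lower (29.4%), of which 1304 (8.79%) and 179 (1.21%) were at least 2-fold. These comparisons share libraries with the main one, so that values are set side by side only. The median of the H/ACA list was 1.35 for 18 h against frozen and 1.78 for 3 weeks against 18 h, where 26 of 31 rose. For the secreted protein list the medians were -0.80 and -0.76, and 45 of 45 fell between 18 h and 3 weeks. For the proteasome list they were -0.77 and -0.62, with 31 of 47 falling. The list of giant structural genes had 0.45 at 18 h against frozen and -0.08 between 18 h and 3 weeks, where 3 rose and 14 fell.

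Values of single genes for both steps are set side by side here. Jund was -0.31 at 18 h against frozen and 1.87 at 3 weeks against 18 h (adjusted p = 2.39e-14). Snora70 was 0.98 and 2.33, Malat1 0.76 and 1.16, Lars2 2.66 and 2.67, and Alb -0.71 and -0.69 in the same order. Kmt2a was 1.55 at 18 h against frozen and -0.07 between 18 h and 3 weeks (adjusted p = 0.456), and Mup3 -0.91 and 0.03 (adjusted p = 0.468). Immediate early genes gave 9 rises and 4 falls of 32 at 18 h against frozen, and 11 rises and 0 falls of 33 between 18 h and 3 weeks. In the first of these comparisons 28.7% of all genes rose and 29.4% fell, and in the second 14.3% and 20.8%. The largest rises between 18 h and 3 weeks outside small RNAs included 5730408K05Rik (2.75), Gm12238 (1.96) and Far2, which makes fatty alcohols (1.83). The falls included Cideb, a lipid droplet protein (-1.81), Car5a, a mitochondrial carbonic anhydrase (-1.62), and Pebp1 (-1.61).

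Furan and control animals were compared for the size of the preservation difference. Of 14253 genes, 0 passed the edgeR test of the interaction (483 had an unadjusted p below 0.05), and DESeq2 called 3. The background in this comparison was 0%. Among the 5 smallest p values, Gamt, which makes creatine, differed by -1.48 to -0.76 log2 units in control and by -2.25 to -1.52 in furan animals, and Scrn2 by -3.0 to -1.99 and by -1.75 to -0.99. The groups of 4 animals did not overlap for either, by choice of the smallest p. The DESeq2 calls included 2810008D09Rik (adjusted p = 0.0219) and Crip1 (adjusted p = 0.0484), both resting on 3-week libraries without counts.

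Fewer genes were seen at the low end of the 3-week libraries. After every library was thinned to 5560002 counts, 14744.5 genes (14461 to 14960) had at least 1 count in frozen and 13673 (13302 to 14038) in 3-week libraries, lower in 8 of 8 animals (exact permutation p = 0.0078125, adjusted 0.00833). With at least 10 counts the order was the other way, 11216 (10999 to 11309) against 12100.5 (11882 to 12273), higher in 8 of 8. The number of genes with exactly 3 counts, looked at after the values were seen, was 330.0 (120 to 341) in frozen, 318 (229 to 354) in 18 h and 57 (27 to 135) in 3-week libraries as deposited. For exactly 12 counts it was 103 (87 to 115) in frozen and 106.5 (71 to 170) in 3-week libraries. Genes with 2 to 5 counts outnumbered those with 9 to 12 counts by a ratio of 2.54 (1.08 to 2.75) in frozen libraries, whose lowest value was that of animal 3 and whose other values were 2.12 to 2.75. The ratio was 2.26 (1.73 to 2.41) at 18 h and 0.633 (0.537 to 0.830) at 3 weeks. After thinning it was 2.70 (2.66 to 2.95) in frozen and 0.810 (0.632 to 0.901) in 3-week libraries. The thinning removed most counts of the frozen libraries and far fewer of the 3-week libraries. In frozen animal 3 the ratio went from 1.08 to 2.67, while in the smallest library, the 3-week library of animal 42, it stayed at 0.830. Thinning can thus hide a lack of low counts in frozen libraries, so that these ratios are no check at equal depth. What makes low counts rare in the 3-week libraries was not tested, and it bears on every gene near the filter on low counts.

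**Figure D5:**
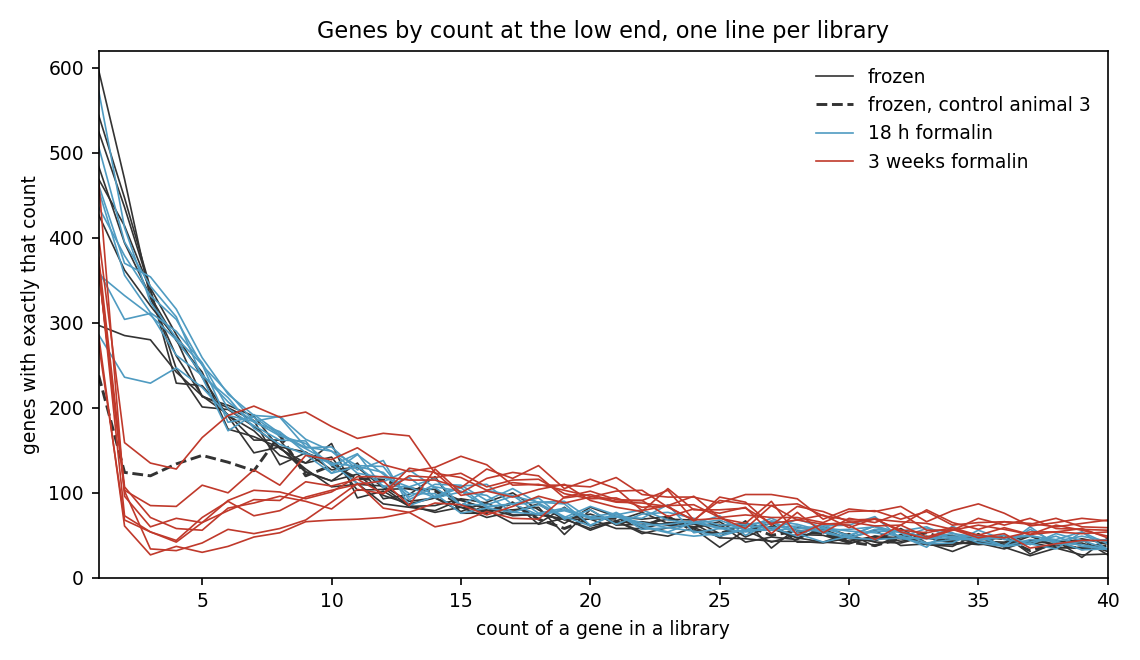
Number of genes (y axis) with exactly a given count (x axis, 1 to 40) in each library as deposited, 1 line per library, black for frozen, blue for 18 h and red for 3 weeks, with the frozen library of animal 3 dashed. Frozen lines other than that of animal 3 and the 18 h lines fall with the count, from more genes with 2 to 5 counts than with 9 to 12, while the 3-week lines dip between 2 and 5 counts and the line of frozen animal 3 stays nearly flat from 2 counts on.

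At this end a gene could be missing from all 3-week libraries although it was present in every other preservation. There were 15 called genes with 121 to 442 counts over the frozen libraries and 57 to 213 over the 18 h libraries. All had 0 counts in all 8 3-week libraries, by total counts 8.30-fold to 30.3-fold lower when 3 counts in all stand for the empty group. The floor of 3 counts covers counting error only. As low counts were rare in the 3-week libraries, these folds are not lower bounds. Rnf113a1, a ubiquitin ligase gene, had the most with 442 frozen and 159 counts at 18 h. Ltb, a lymphocyte cytokine, had 237 and 110, Nup62cl 332 and 80, and Cd3g 194 and 120. Over all symbols, 586 of 1873 genes with 10 to under 50 frozen counts had none in the 3-week libraries, against 38 in the 18 h libraries. Of 939 genes with 100 to under 200 frozen counts 16 had none at 3 weeks, of 1348 with 200 to under 500 counts 11, and of those with 500 to under 5000 counts 0.

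Libraries also varied more among themselves after 3 weeks. Both preservations come from the same 8 animals, and what widened the spread was not tested. The median biological coefficient of variation of 8263 genes, estimated within treatments, was 15.7% in frozen and 23.3% in 3-week libraries, and after thinning to equal totals 15.8% and 23.3%. Of the genes with at least 10 thinned counts in all 8 libraries of a preservation, 10107 in frozen and 9620 after 3 weeks, 9127 were shared, which is 90.3% of the frozen and 94.9% of the 3-week genes. In 255 of the frozen set at least 1 of the 3-week libraries had no count, and in 44 of the 3-week set at least 1 of the frozen libraries had none. Families silent in liver, such as olfactory, vomeronasal and taste receptors and keratin-associated proteins, summed to 22.4 CPM (16.5 to 25.8) in frozen and 64.8 CPM (39.4 to 76.8) in 3-week libraries without scaling, higher in 8 of 8 animals. The number of their members with at least 1 count after thinning did not follow: it was 24 (15 to 29) in frozen and 19 (15 to 29) in 3-week libraries, lower in 5 animals and higher in 2 (exact permutation p = 0.234). Only 7 of 1122 olfactory receptor symbols were tested, of which 2 rose and 0 fell, beside 20.1% and 27.2% of all genes. Olfr1033 was 1 of the 2 (0.85 ± 0.20, adjusted p = 0.00103).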

How the data were processed

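Ribosome-depleted RNA of 24 mouse liver libraries was deposited as 1 table of raw counts per gene symbol, made by the authors with CASAVA 1.8.2, STAR 2.3.0 and featureCounts 1.4.4 on mm9, per the submitters' processing notes. Gene models, strand and the handling of reads with several positions are not given in the sources used here. The table holds 24015 symbols, all values are whole numbers, no pair of columns is identical, and no mitochondrially encoded gene is in it. The columns name preservation and animal, and 0 columns were left unused.

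Counts were fitted in R 4.3.3 with edgeR 4.0.16: TMM, filterByExpr, robust quasi-likelihood test, two-sided, with the animal as block and Benjamini-Hochberg adjustment over all tested genes. The fit used the 16 libraries compared, the standard error is the log2 fold change over the square root of F, and the script was tested on simulated data. The pairing comes from the labels, since pieces with the same number come from the same liver. Deviations from the group mean correlated best with the own liver in 7 of 8 animals (r -0.0223 for animal 3, 0.129 to 0.235 for the others). Within-animal differences are log2 CPM with a pseudocount of 0.5 counts. Library measures were compared by an exact sign-flip permutation test over 8 animals. Replicates are separate animals. Reads amplified by PCR are not independent molecules, so that floors (3 counts over a group) cover counting error only.

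Transcript length, GC content and class came from GENCODE M21 (GRCm38) by symbol for 14123 of the 14253 tested genes, 99.1%. No coordinates of the files' build are used. Named genes, with 1 direction in 8 animals and a mean log2 CPM from 3 upward, are the 12 largest rises and 12 largest falls outside small RNAs and the 6 and 6 among small RNAs, where no fall qualified. Added to them are the 8 most abundant in frozen tissue, up to 4 members per list with the smallest p, the 6 and 6 by the first rule between 3 weeks and 18 h, and the 5 smallest interaction p. Members, lists and rules were chosen with earlier results of these data known. Alternatives were other scalings and filters, DESeq2 1.42.0, a fold threshold of 1.5, thinning with seed 1, a fit over 24 libraries, each treatment alone, no block and each animal left out.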

Additional observations from a re-analysis of the deposited data

Results flagged for a closer look

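Among 122 values looked at (42 named genes by their within-animal difference, 16 differences and 64 levels of library measures), 8 had an animal far from the others of its group by Dixon's criterion, which chance alone gives in about 1 of 20 groups. Of these, 7 were control animal 3, whose frozen library also stood apart in ribosomal RNA signals and GC content.

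The level of ribosomal RNA signals in the frozen library of control animal 3 was 0.262% of counts, with 0.117% the nearest of the other frozen control libraries. The difference in count-weighted mean GC content between the 3-week and the frozen piece was -1.63 percentage points in animal 3, with -0.597 the nearest.

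For Lars2 the log2 CPM difference was 4.23 in animal 3, with 5.18 the nearest. For Rnu11, the U11 RNA, it was 10.1 in animal 3, with 7.49 the nearest. For Snora81 it was 13.1 in animal 3, with 7.10 the nearest, and the frozen library of that animal had no count of it. For Ahsg, the plasma protein fetuin-A, it was -1.90 in animal 3, with -1.41 the nearest, and for Apoe -2.71 in animal 3, with -1.98 the nearest. For H2-Q2, a class I histocompatibility gene with close copies, it was -6.53 in animal 6, with -3.56 the nearest.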

How the results depend on the processing

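Of 6739 calls, 2861 higher and 3878 lower, a fold threshold of 1.5 kept 2960 (1189 and 1771), and control animals alone gave 4297 (1881 and 2416). With total counts as the scale 5021 were higher and 2006 lower, 71.5% higher in place of 42.5%. Without the replicate block, the pairing by animal, 6876 were called (3276 higher, 3600 lower), and between 3 weeks and 18 h 4527 in place of 5069. The other scalings, filters and tests gave 6457 to 8082 calls, leaving out 1 animal 6304 to 6774, and furan animals alone 5472. None of these called a gene the other way, apart from 37 genes under total counts. The interaction gave 0 calls under the edgeR settings and 3 with DESeq2.

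The median of the zinc finger list was -0.0153 to 0.0441 when an animal was left out (below 0 without animal 3 and without animal 44, at -0.000726) and -0.00493 without the 3 animals with muscle transcripts, a setting added after the data were seen. With total counts Apob was at 0.00917 and Reln at 0.0329, both not called. The mean rho with exon number, over all tested genes, was -0.0332 to -0.0170 when an animal was left out and -0.00166 for genes of higher expression. For intron share it was 0.00841 for those genes and -0.00372 to 0.00197 when an animal was left out, above 0 without animals 6 (0.000834), 42 (0.00176) and 44. The causes were not tested. A gene with 10 to under 50 frozen counts was often without a count in the 3-week libraries. Low counts stayed rare there after thinning to equal totals, but this setting removed far fewer counts from the 3-week than from the frozen libraries and cannot test the role of depth.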
